A study of Mus musculus with 10 samples.

Results

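The genes described here are 9 regulators of the primed epiblast and of the early germ layers: Otx2, Pou3f1, Foxd3, Sox3, T, Mixl1, Zic2, Zic5 and Sox1. They were taken by name for their known roles with earlier results of these data known, so the shares of them that are set beside all genes are descriptions. All 9 are among the 18901 genes of the deposited table. Poly(A) RNA of 5 mouse lines was sequenced with 50-nt single reads, 2 libraries per line. Oct4/GFP MEF (embryonic fibroblasts with a GFP reporter for Oct4) were sampled at passages 2 and 4. Partially reprogrammed pre-iPS cells, ‘control’ iPS cells and ‘rNetrin-1-derived’ iPS clones 1 and 2 were sampled at passages 5 and 25.

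All libraries carry the strain label mf1 x 129 cross. The reprogrammed lines came from such MEF infected with Oct4, Sox2, Klf4 and c-Myc retroviruses and were kept in KSR+LIF medium, while MEF were kept in DMEM with 10% FCS. The rNetrin-1-derived clones had recombinant Netrin-1, a secreted ligand, in the medium during reprogramming. According to the study, pre-iPS cells keep the Oct4/GFP locus silent and the retroviral transgenes active. Its culture methods name gelatin or irradiated MEF as the support for pre-iPS and iPS cells, so feeder RNA may be part of those libraries. MEF, pre-iPS and control iPS cells are 1 line each, so the condition and the line cannot be told apart. The adjusted p-values measure the spread between 2 passages of a line, which may be technical in part.

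The libraries held 38110410 to 52946856 reads on genes. Deposited values are read counts that the authors brought to a common library size, and 1 read was worth 0.888 to 1.18 of these units. A gene was called different where limma's adjusted p was below 0.05 and the log2 fold change of (value + 1) was at least 1 in size. Of 10 fibroblast markers, all 10 were higher in MEF than in iPS cells, and their summed level in the iPS libraries was 0.746 to 1.34% of the MEF mean. In pre-iPS cells that sum was 0.779 to 0.903%, and 0 of the 10 were called against iPS cells. All 9 pluripotency markers were lower in MEF than in iPS cells. In pre-iPS cells 6 of the 9 were lower than in iPS cells and 1 was higher. Of the extraembryonic endoderm markers 4 of 8 were lower in pre-iPS than in iPS cells, and of the trophoblast markers 2 of 6 were lower and 1 was higher. Neither list held a called gene between the iPS lines, and 0 of 4 housekeeping genes were called in any comparison. In MEF against iPS cells the housekeeping genes still ranged from −0.96 to 0.45 log2 (median −0.52), the lowest just inside the fold threshold. In bulk RNA, fewer cells of a type and less RNA per cell cannot be told apart.

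In the mouse embryo, the naive epiblast passes through a formative state to the primed epiblast, from which the germ layers arise. Otx2 and Pou3f1 (Oct6) are transcription factors that come on as naive cells are primed, and Foxd3 is a forkhead factor needed to maintain the epiblast. Sox3 and Sox1 are SoxB1 factors of the epiblast and neural plate, and Zic2 and Zic5 are zinc-finger factors of the epiblast and dorsal neural tube. T (Brachyury) and Mixl1 mark the primitive streak, where mesoderm and endoderm form.

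The 9 genes lie on 6 chromosomes in GRCm38 (mm10), and Otx2 (chr14:48657677-48673819, minus strand) shares chromosome 14 with Zic5 (chr14:122456795-122465677, minus) and Zic2 (chr14:122475435-122479852, plus). The last pair are head-to-head neighbours 9757 bp apart. Pou3f1 is at chr4:124656807-124660655 (plus), Foxd3 at chr4:99656299-99658622 (plus), Sox3 at chrX:60891366-60893430 (minus), Sox1 at chr8:12395295-12400126 (plus), T at chr17:8434423-8442496 (plus) and Mixl1 at chr1:180693043-180697034 (minus). Pou3f1, Foxd3, Sox3 and Sox1 are annotated with 1 exon each. Otx2 overlaps the antisense transcript Otx2os1 over 5112 bp, and Pou3f1 overlaps the antisense Gm2164 over 363 bp. The kit does not mark strand, so reads over these stretches cannot be assigned to 1 gene of the pair. Sox1 lies inside Sox1ot on the same strand, so strand would not separate their reads either.

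Promoter windows of 300 bases, from 250 before to 50 after a RefSeq start, were at hand for Otx2, Foxd3, T, Zic5 and Sox1 (GRCm38.p6). They are shown because the first 3 of these genes were low in pre-iPS cells while Zic5 and Sox1 were not. Capitals mark matches, on either strand, to 8 short motifs that are spelled out after the windows. For Otx2, the most upstream of its 4 windows is printed.
Otx2, chr14:48667595-48667894, minus strand: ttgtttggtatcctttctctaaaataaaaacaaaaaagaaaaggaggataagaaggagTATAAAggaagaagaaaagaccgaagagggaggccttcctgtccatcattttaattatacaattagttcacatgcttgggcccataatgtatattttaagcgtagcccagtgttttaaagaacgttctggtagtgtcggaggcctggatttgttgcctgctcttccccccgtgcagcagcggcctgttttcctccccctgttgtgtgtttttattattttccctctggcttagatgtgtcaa
Foxd3, chr4:99656049-99656348, plus strand: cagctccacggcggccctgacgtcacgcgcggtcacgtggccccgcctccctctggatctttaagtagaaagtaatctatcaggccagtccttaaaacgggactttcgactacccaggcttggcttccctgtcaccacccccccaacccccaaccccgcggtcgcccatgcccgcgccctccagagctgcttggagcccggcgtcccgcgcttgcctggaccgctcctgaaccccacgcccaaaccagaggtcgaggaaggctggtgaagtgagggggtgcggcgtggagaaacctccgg
T, chr17:8434173-8434472, plus strand: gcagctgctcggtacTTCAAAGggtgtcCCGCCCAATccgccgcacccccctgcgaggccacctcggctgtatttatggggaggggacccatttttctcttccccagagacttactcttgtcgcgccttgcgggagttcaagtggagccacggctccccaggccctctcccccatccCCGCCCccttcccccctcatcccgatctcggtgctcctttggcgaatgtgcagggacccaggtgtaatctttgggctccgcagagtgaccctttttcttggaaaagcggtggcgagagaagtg
Zic5, chr14:122465609-122465908, minus strand: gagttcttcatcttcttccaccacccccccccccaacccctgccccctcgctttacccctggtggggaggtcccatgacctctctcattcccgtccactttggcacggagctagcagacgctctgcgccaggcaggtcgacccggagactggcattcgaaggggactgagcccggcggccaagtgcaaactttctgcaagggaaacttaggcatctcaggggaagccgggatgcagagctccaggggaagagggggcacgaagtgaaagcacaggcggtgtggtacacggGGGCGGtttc
Sox1, chr8:12395269-12395568, plus strand: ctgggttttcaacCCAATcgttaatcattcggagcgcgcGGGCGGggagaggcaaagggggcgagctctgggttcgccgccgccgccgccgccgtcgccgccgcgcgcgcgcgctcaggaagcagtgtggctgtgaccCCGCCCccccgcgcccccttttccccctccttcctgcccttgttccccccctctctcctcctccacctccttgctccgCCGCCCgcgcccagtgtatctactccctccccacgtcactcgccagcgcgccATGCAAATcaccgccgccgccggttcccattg

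The Sox1 window held the octamer ATGCAAAT, which 1.7% of 32851 RefSeq mouse windows hold. The T window held the Lef/Tcf core CTTTGAA, present in 5.1% of windows. The GC box GGGCGG (35.7% of windows) was in the Sox1, Zic5 and T windows. A CCAAT match (37.4% of windows) in the T window overlapped its GC box, and others were in the Sox1 window and in 1 Otx2 window that is not printed. The printed Otx2 window held TATAAA (13.6% of windows). Another Otx2 window held the Otx core TAATCC (7.1% of windows). The Foxd3 window held no match. The Sox core ACAATG (12.6% of windows) was in no window of these 5 genes, and the same was true of the T-box core TCACACC (4.0%). The ratio of observed to expected CpG was 1.07 in the Sox1 window, above 97.0% of all windows. It was 0.79 for Foxd3, 0.61 for T, 0.51 for Zic5 and 0.46 to 0.89 for Otx2, against a median of 0.38. These are letter matches and were not tested as binding sites.

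The 9 genes showed 2 patterns across the lines. Otx2, Pou3f1, Foxd3, Sox3, T and Mixl1 were higher in iPS cells than in both pre-iPS cells and MEF, and each was called lower in pre-iPS than in iPS cells. For Zic2, Zic5 and Sox1 the pre-iPS libraries overlapped those of the iPS lines, and MEF were low. Thus 6 of 9 were lower in pre-iPS cells and 0 were higher, against 11.6% and 4.71% of the 17075 genes tested (16.3% in either direction). The median log2 fold change was −2.86 over the 9 genes and 0.001 over all genes. In these 6 genes, the pre-iPS and iPS libraries did not overlap, which was so for 41.8% of all genes. The exact permutation p of each was 0.0357, the smallest that 2 against 6 libraries can give (2-sided). That test treats libraries as independent, although the 2 libraries of a line are passages of it and pre-iPS cells are a single line. Otx2, Foxd3, T and Mixl1 passed the filter on low values (10 or above in 2 libraries) only through the iPS libraries. The direction of 4 of these 6 was thus largely given in advance, and these counts are descriptions.

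**Figure D1:**
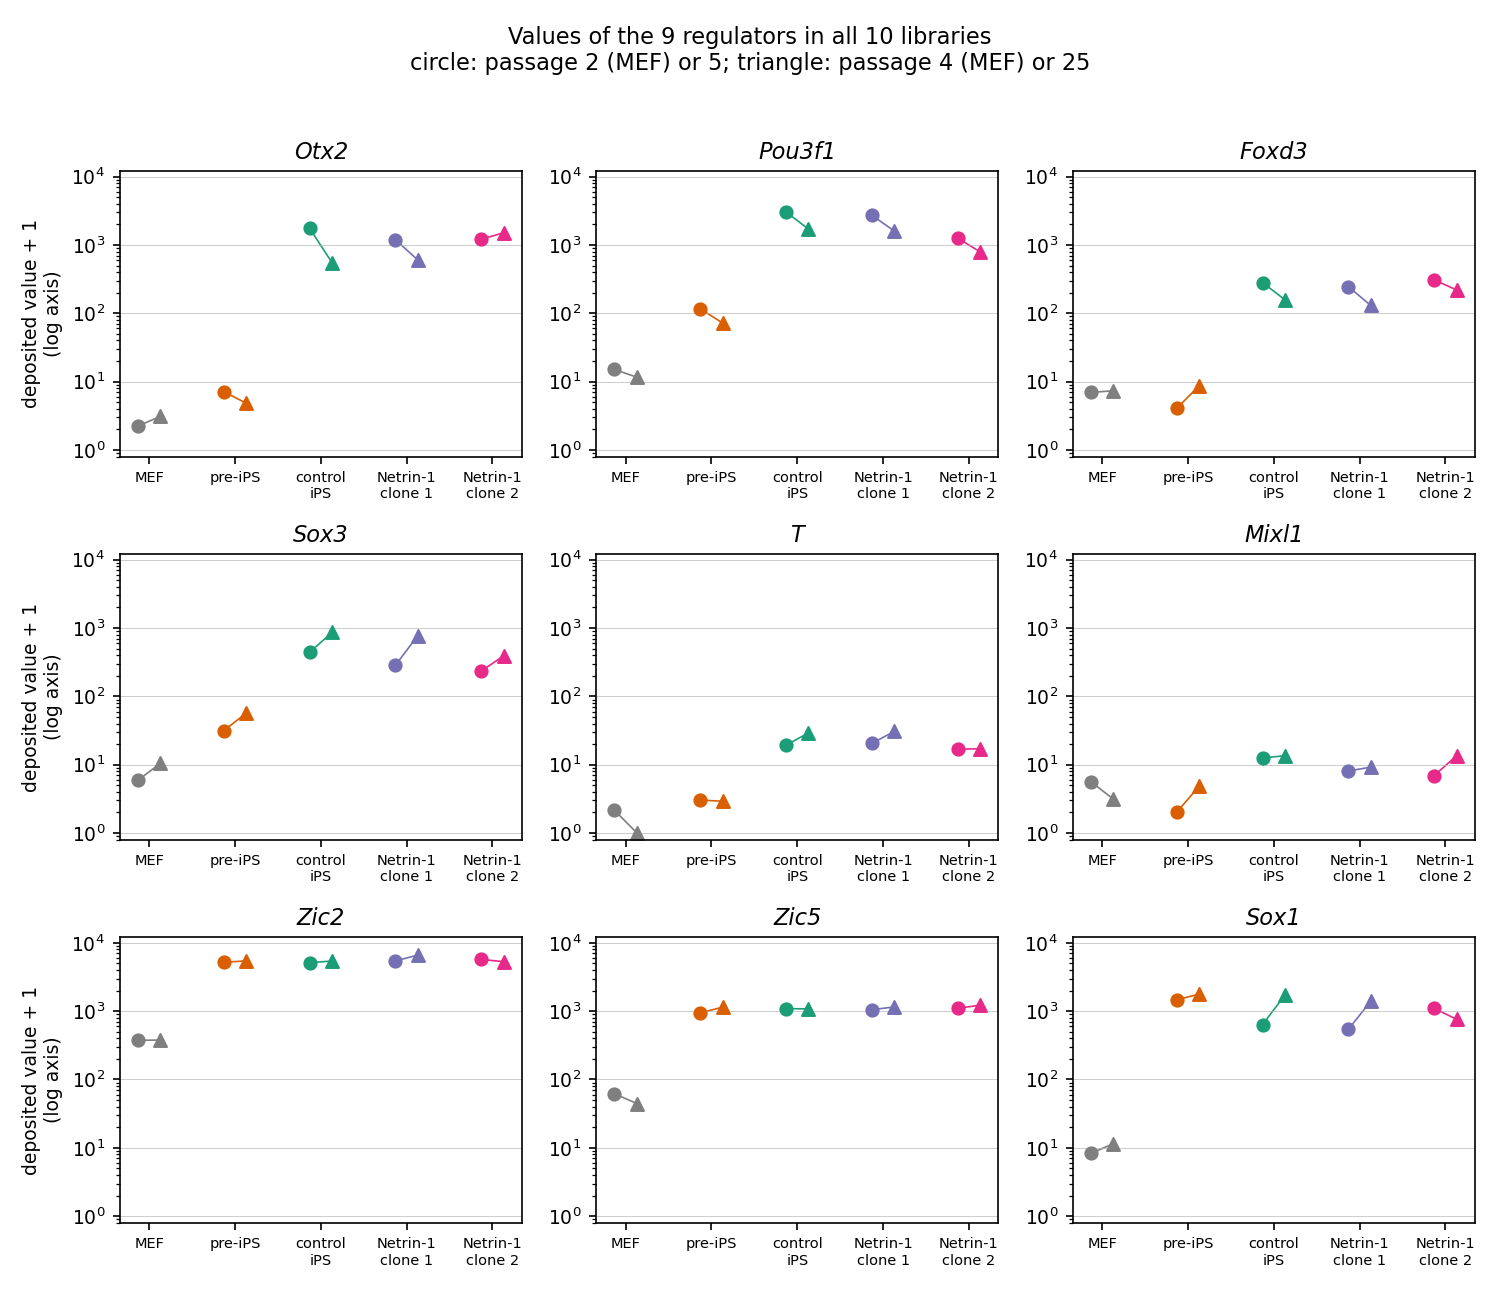
Deposited value + 1 (log axis) of each of the 9 regulators in the 10 libraries. Circles are the earlier and triangles the later passage of each line. Otx2, Pou3f1, Foxd3 and Sox3 are high in the 6 iPS libraries alone, whereas Zic2, Zic5 and Sox1 are also high in the 2 pre-iPS libraries.

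Otx2, a homeodomain factor of the epiblast and later of the forebrain, gave the largest contrast of the set. Its values at passages 5 and 25 were 1748 and 551 in control iPS cells, 1189.8 and 602 in clone 1, and 1210.0 and 1506 in clone 2. In pre-iPS cells they were 6.12 and 3.84, and in MEF 1.23 and 2.10 at passages 2 and 4. The iPS libraries lay far above all others, and the pre-iPS and MEF libraries were both near the level of single reads. Otx2 was lower in pre-iPS than in iPS cells, with a log2 difference of −7.47 (SE 0.44, limma adjusted p = 8.86e-06). As reads, 7163 over 6 iPS libraries against 10 over 2 pre-iPS libraries gave a ratio of 233 (95% exact interval 127 to 486, counting error only). Against 3 reads in MEF the ratio was 688 (95% exact interval 235 to 3338).

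Pou3f1, a POU factor of the primed epiblast, reached 3032 and 1708 in control iPS cells, 2707 and 1601 in clone 1, and 1256 and 791 in clone 2 at passages 5 and 25. The pre-iPS values were 115 and 71.0, and the MEF values 14.1 and 10.6. The 3 cell states did not overlap: pre-iPS cells were below iPS cells, at a log2 difference of −4.20 (SE 0.32, limma adjusted p = 3.31e-05) and above MEF by 2.79 (SE 0.39, limma adjusted p = 0.000216). Pou3f1 in pre-iPS cells stood at 187 reads against 22 in MEF (ratio 7.53, 95% exact interval 4.83 to 12.3).

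Foxd3 was 280.4 and 156 in control iPS cells, 243 and 129 in clone 1, and 306 and 219 in clone 2. In pre-iPS cells it was 3.06 and 7.68, and in MEF 5.95 and 6.33. It was lower in pre-iPS than in iPS cells, with a log2 difference of −5.17 (SE 0.39, limma adjusted p = 3.13e-05). The pre-iPS and MEF libraries overlapped, with 11 reads in each pair and a log2 difference of −0.27 (95% interval −1.35 to 0.82).

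Of the SoxB1 genes, Sox3 and Sox1 differed in pattern. Sox3 was 441 and 860.4 in control iPS cells, 285 and 776 in clone 1, and 235 and 389.8 in clone 2, with pre-iPS cells at 30.6 and 55.7 and MEF at 4.94 and 9.44. Each pre-iPS value lay between the MEF and iPS ranges, with log2 differences of −3.40 from iPS cells (SE 0.46, limma adjusted p = 0.000726) and 2.43 from MEF (SE 0.57, limma adjusted p = 0.00437). Sox3 is X-linked. Xist, the RNA that coats the inactive X, stood at 16029.9 and 22076 in the pre-iPS libraries and at 21946 and 20013 in those of clone 2, but at 282 to 317 in control iPS cells and 144 to 154 in clone 1. The median log2 difference of X-linked genes between pre-iPS and iPS cells was −0.08, and the part of the X in the Sox3 values was not tested.

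Sox1, a marker of the neural plate, was 1465 and 1774 in pre-iPS cells, 635 and 1719 in control iPS cells, 544 and 1392 in clone 1 and 1094 and 759 in clone 2. In MEF it was 7.26 and 10.5. The pre-iPS libraries overlapped those of the iPS lines, and the difference of 0.78 log2 was not called (95% interval −0.20 to 1.76, limma adjusted p = 0.183). Against MEF, Sox1 was higher in pre-iPS cells by 7.37 log2 (SE 0.53, limma adjusted p = 3.54e-06), or 3284 reads against 16. Sox2, the third SoxB1 gene, was 18529 and 21950.5 in pre-iPS cells and 8304 to 14832 in iPS cells, a log2 difference of 0.93 (SE 0.12, limma adjusted p = 0.000516) that was under the fold threshold. The Sox2 retrovirus carries the same coding sequence, so reads of the transgene and of the gene cannot be told apart.

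Zic2 and Zic5 varied least of the 9 genes among the reprogrammed lines. Zic2 values were 5187 and 5436 in pre-iPS cells, 5128 and 5409.5 in control iPS cells, 5423 and 6625 in clone 1, and 5715 and 5288 in clone 2, against 373 and 377 in MEF. The pre-iPS values fell within the iPS range, with a log2 difference of −0.07 (95% interval −0.26 to 0.12, limma adjusted p = 0.530). Zic5, its head-to-head neighbour, was 945 and 1141 in pre-iPS cells, 1089.8 and 1076 in control iPS cells, 1050.4 and 1152 in clone 1, and 1099.9 and 1221 in clone 2, against 60.8 and 43.5 in MEF. Its pre-iPS and iPS libraries overlapped as well, with a log2 difference of −0.10 (95% interval −0.43 to 0.22, limma adjusted p = 0.605). Both were higher in pre-iPS cells than in MEF, Zic2 by 3.82 (SE 0.10, limma adjusted p = 2.27e-08) and Zic5 by 4.31 (SE 0.17, limma adjusted p = 1.55e-07).

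Zic1 and Zic4, paralogs of Zic2 and Zic5, did not share this level pattern. Zic1 was 573 and 940.0 in pre-iPS cells, 15.1 to 68.8 in iPS cells and 1327 and 1344 in MEF, so that it was higher in pre-iPS than in iPS cells by 4.51 (SE 0.51, limma adjusted p = 0.000291). Zic4, the neighbour of Zic1, had pre-iPS values of 16.3 and 42.2 and MEF values of 233 and 218, and was at most 3.13 in iPS cells. Zic1 and Zic4 were thus higher in pre-iPS cells and MEF than in iPS cells.

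**Figure D2:**
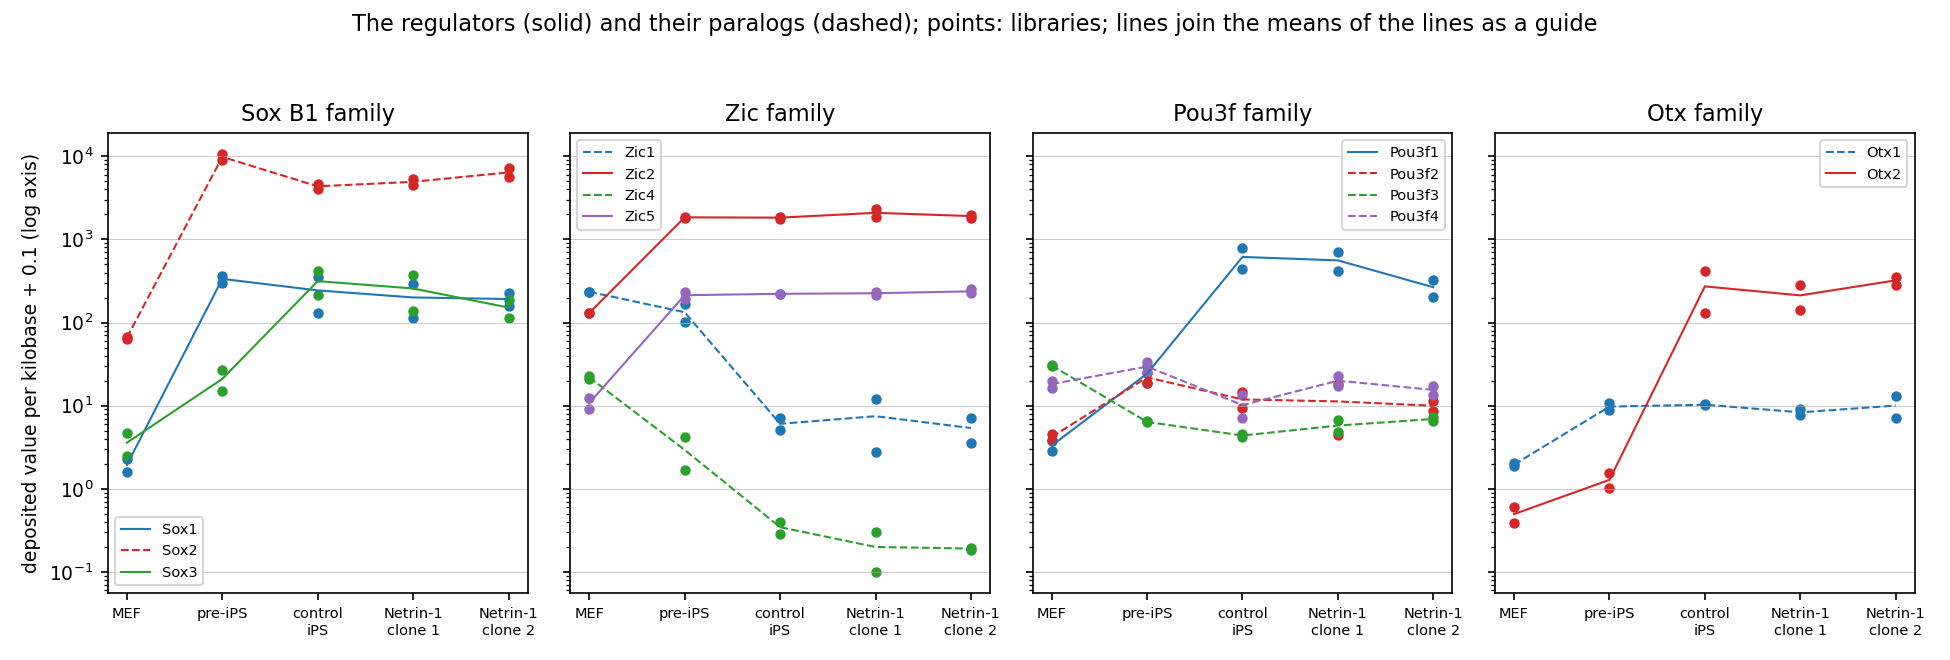
Deposited value per kilobase of merged exons + 0.1 (log axis) for SoxB1, Zic, Pou3f and Otx genes in the 5 lines. Solid lines are the regulators, dashed lines their paralogs, and points the 2 libraries of a line. Otx2, Pou3f1 and Sox3 rise between pre-iPS and iPS cells, while Zic1 and Zic4 fall.

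The streak genes were scarce in every line. T was 18.4 and 28.2 in control iPS cells, 19.5 and 29.8 in clone 1, and 15.9 and 16.1 in clone 2, against 2.04 and 1.92 in pre-iPS cells, and MEF held 1 read in 2 libraries. Its iPS libraries did not overlap the others, and pre-iPS cells were lower, with a log2 difference of −2.86 (SE 0.37, limma adjusted p = 0.000589). On reads, 131 over 6 iPS libraries against 4 over 2 pre-iPS libraries gave a ratio of 10.6 (95% exact interval 4.06 to 39.7), and against 1 read in MEF the ratio was 37.8 (95% exact interval 6.66 to 1502). Mixl1 was 11.6 and 12.5 in control iPS cells, 7.09 and 8.21 in clone 1 and 5.95 and 12.5 in clone 2, with pre-iPS cells at 1.02 and 3.84 and MEF at 4.64 and 2.15. Its difference of −1.72 in pre-iPS cells (SE 0.45, limma adjusted p = 0.0158) rests on 60 against 5 reads, a ratio of 3.90 (95% exact interval 1.58 to 12.5). Mixl1 lost its call against iPS cells without the pre-iPS library of passage 5 (−1.09, limma adjusted p = 0.164), with quantile normalization (−0.53), with a pseudocount of 5 (−0.98) and with DESeq2 (−1.96, adjusted p = 0.101).

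Against MEF, the iPS lines held all 9 regulators at higher levels, where 26.6% of all genes were lower in MEF and 48.2% differed in either direction. The log2 differences of MEF from iPS cells ran from −8.62 for Otx2 (SE 0.44, limma adjusted p = 3.08e-07) to −1.29 for Mixl1 (SE 0.45, limma adjusted p = 0.0250). Pou3f1 (−6.99), Sox1 (−6.59), Sox3 (−5.82), Foxd3 (−4.90), Zic5 (−4.41), Zic2 (−3.89) and T (−3.88) lay between. MEF and iPS libraries did not overlap in any of the 9, as in 80% of all genes. Otx2, Foxd3, T and Mixl1 passed the filter on low values only through the iPS libraries. Their direction was thus largely given in advance, and these counts are descriptions. The Mixl1 call did not hold without the MEF library of passage 4 (−0.87, limma adjusted p = 0.216), with a pseudocount of 5 (−0.80), with housekeeping scaling (−0.98) or with DESeq2 (−1.48, adjusted p = 0.144), and after quantile normalization its sign turned (0.65). Between pre-iPS cells and MEF, 5 of 9 were higher in pre-iPS cells and 0 were lower, against 22.4% and 20.9% of all genes (43.2% in either direction). The 5 were Sox1, Zic5, Zic2, Pou3f1 and Sox3. For Otx2 the difference was 1.16 (95% interval −0.08 to 2.39) and for T 1.02 (95% interval −0.03 to 2.06). Otx2 was called where either control iPS library was left out of the shared fit or where these lines alone were fitted, and T where the MEF library of passage 2 was left out (1.56).

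**Figure D3:**
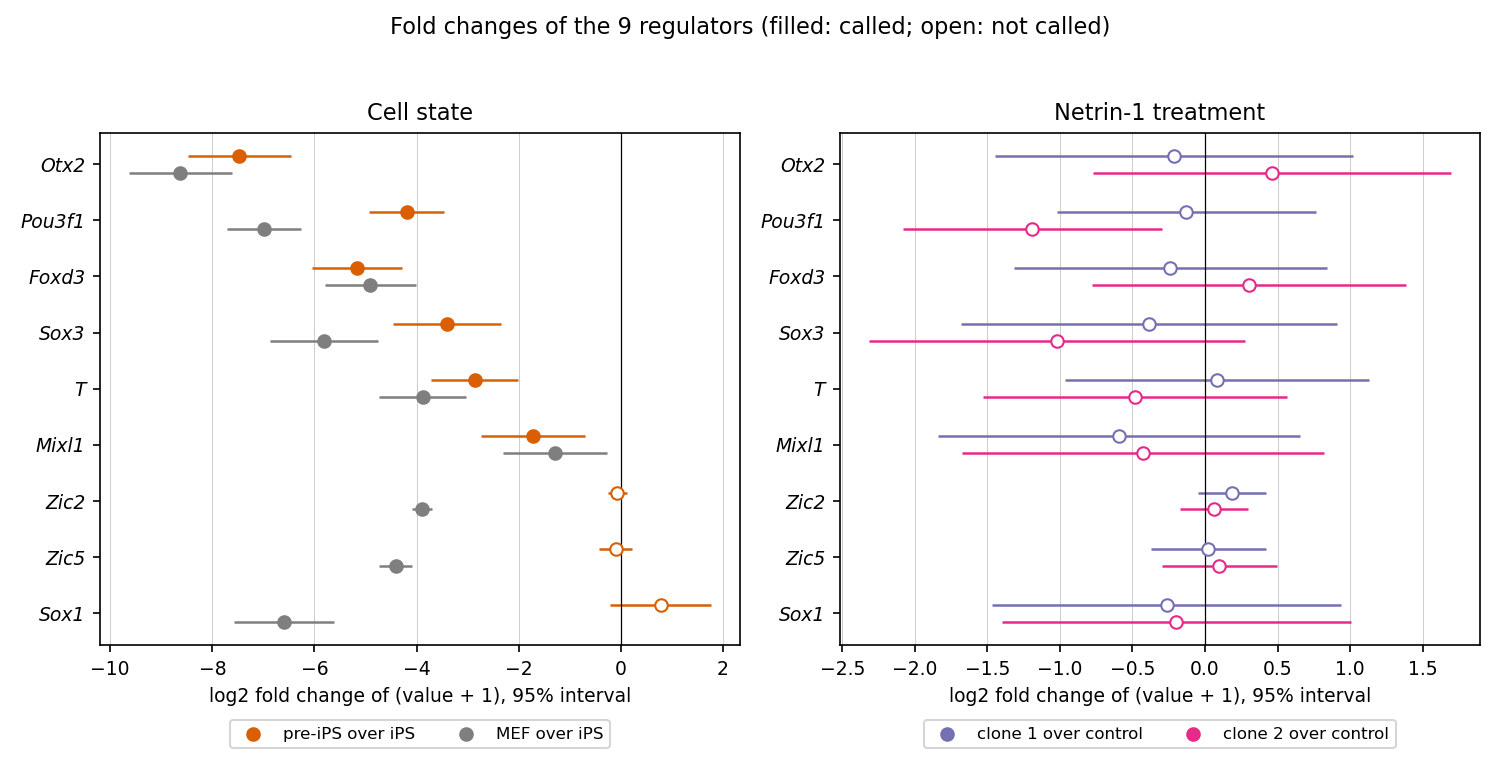
Log2 fold change of (value + 1) with its 95% interval for each regulator. On the left are pre-iPS cells and MEF over the 3 iPS lines, on the right each rNetrin-1-derived clone over control iPS cells. Filled points were called. On the left 6 pre-iPS points and all 9 MEF points are filled, and on the right none is. The fit shown had no passage term.

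Genes that belong to the same developmental steps were then described by list. Of 20 other formative and primed epiblast genes, 11 were lower in pre-iPS than in iPS cells, 0 were higher and 9 were not called, with a median of −1.10. The lowest were Fgf8 (−5.25, SE 0.64, at 2.04 and 0 in pre-iPS cells and 24.8 to 164 in iPS cells), Lef1, a Wnt effector (−4.58, SE 0.54), and Fgf5, the ligand that marks the primed epiblast (−4.45, SE 0.37). Fgf5 was 13.3 and 8.64 in pre-iPS cells, 127 to 442 in iPS cells and 72.8 and 59.3 in MEF, so its pre-iPS values were the lowest of all. Of 20 streak and mesoderm genes tested, 8 were lower and 1 was higher, with a median of −0.51. The lowest were Fgf3, with 0 reads in pre-iPS cells and values of 27.8 to 57.4 in iPS cells, Hand1 (−3.93, SE 0.66) and Axin2, a Wnt target (−3.72, SE 0.17). Mesp1, a factor of nascent mesoderm, was higher (1.56, SE 0.39).

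Of 26 early ectoderm and neural genes tested, 8 were lower in pre-iPS cells and 3 were higher (all genes: 11.6% and 4.71%), with a median of 0.01. Olig3 (−4.21, SE 0.54), Rax (−2.75, SE 0.54) and Hesx1 (−2.73, SE 0.58), regulators of neural tube, eye field and forebrain, were the lowest, and in pre-iPS cells Rax had 1 read and Hesx1 2 reads per library. Zic1, Zic4 and En2 (1.37, SE 0.24) were higher. Among 18 paralogs of the 9 regulators, 4 were higher and 3 were lower. Zic1 and Zic4, already counted on the ectoderm list, are among these 4. Foxd1 was higher (1.57, SE 0.32), and Foxd4 (−1.70, SE 0.44) and Tbx3 (−1.52, SE 0.16) were among the lower ones. Foxd4 was 11.2 and 11.5 in pre-iPS cells, 11.9 to 17.5 in the rNetrin-1-derived clones and 159.5 and 444 in control iPS cells, so its difference lay in the control line. Otx1, the paralog of Otx2, was 46.9 and 57.6 in pre-iPS cells and 37.7 to 69.9 in iPS cells, with a log2 difference of 0.05 (95% interval −0.57 to 0.68). Pou3f2 (95% interval of the difference 0.02 to 2.18) and Pou3f3 (95% interval −0.27 to 0.67) were not called. Among 5 naive genes 4 were lower in pre-iPS cells, Nanog (−3.74, SE 0.16), Esrrb (−6.78, SE 0.35), Klf2 (−1.56, SE 0.22) and Prdm14 (−4.38, SE 0.49), and Zfp42 was not called (0.02, SE 0.22).

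In MEF the same lists held genes on both sides of the iPS level, where 26.6% of all genes were lower and 21.6% were higher. Of the formative and primed epiblast genes, 14 of 20 were lower in MEF than in iPS cells and 2 were higher. The lower ones included Grhl2 (−8.89, SE 0.17), Wnt8a (−8.89, SE 0.47) and Tdgf1, a Nodal co-receptor (−8.84, SE 0.26), and the higher ones were Fst (3.27, SE 0.11) and Cdh2 (2.72, SE 0.25). Of the streak and mesoderm genes 13 of 20 were lower, among them Sp8, with 0 reads in MEF, and 5 were higher, led by Snai1 (2.66, SE 0.11). Of the ectoderm and neural genes 13 of 26 were lower and 9 were higher. List genes near 0 in MEF, such as Sp8, passed the filter on low values through other lines, so these counts are descriptions.

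Whether reprogramming in the presence of Netrin-1 left these regulators at other levels was asked by comparing the clones with control iPS cells. None of the 9 was called for the mean of both clones (0 of 9 against 2.11% of all genes), for clone 1 (0 of 9 against 1.41%) or for clone 2 (0 of 9 against 2.42%). Passage was not in that fit. With passage as a block, Pou3f1 and Sox3 were called for clone 2 against control, among 711 of 17075 genes. For the mean of both clones, the differences ran from −0.71 for Sox3 (95% interval −1.83 to 0.42) to 0.12 for Zic2 (95% interval −0.08 to 0.33). Pou3f1 differed by −0.66 (95% interval −1.43 to 0.11) and Zic5 by 0.06 (95% interval −0.28 to 0.40). The intervals were narrow for the Zic genes and wide for Otx2 (−0.95 to 1.19), Foxd3 (−0.90 to 0.97), T (−1.11 to 0.71), Mixl1 (−1.59 to 0.57) and Sox1 (−1.27 to 0.81), where a difference of 0.5 log2 in either direction lies inside them. In clone 1 alone the log2 differences from control iPS cells were −0.21 for Otx2, −0.13 for Pou3f1, −0.24 for Foxd3, −0.39 for Sox3, 0.08 for T, −0.60 for Mixl1, 0.19 for Zic2, 0.02 for Zic5 and −0.26 for Sox1. Those of clone 2 were 0.46 for Otx2 (95% interval −0.77 to 1.69), 0.30 for Foxd3, −0.48 for T, −0.43 for Mixl1, 0.06 for Zic2, 0.10 for Zic5 and −0.20 for Sox1, besides Pou3f1 and Sox3. An exact permutation test of 2 against 4 libraries cannot go below p = 0.0667.

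For clone 2, the calls of Pou3f1 and Sox3 depended on the fit, and in limma on whether passage was in it. DESeq2, fitted without passage, called 1 regulator for clone 2 against control. Pou3f1 in clone 2 differed from control iPS cells by −1.19 log2 (SE 0.39, 95% interval −2.08 to −0.30, limma adjusted p = 0.143) and from clone 1 by −1.06 (SE 0.39, limma adjusted p = 0.229). Its 2 clone 2 libraries, 1256 and 791, were below all 4 libraries of the other iPS lines. Passages paired the libraries, and with passage as a block both differences were called (limma adjusted p = 0.00186 and 0.00579). Sox3 in clone 2 was −1.02 log2 from control iPS cells (SE 0.57, 95% interval −2.32 to 0.27, limma adjusted p = 0.386), and called with the block (limma adjusted p = 0.0267). Pou3f1 was 1256 in clone 2 against 3032 in control iPS cells at passage 5, and 791 against 1708 at passage 25. For Sox3 the values were 235 against 441 and 389.8 against 860.4. With 1 library left out, a line keeps only its other passage, and the sizes moved. Against control iPS cells, Pou3f1 was −0.78 without the control library of passage 5 and −1.60 without that of passage 25, and Sox3 was −1.504 and −0.54. Against clone 1, Pou3f1 ranged from −1.44 to −0.68 with 1 library of either clone left out. Without the block, 0 of the 9 regulators were called in clone 2 against clone 1, where 0.966% of all genes were.

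Other features also differed in clone 2. Of the 5 naive genes 4 were higher in clone 2 than in clone 1, with log2 differences of 1.37 for Nanog (SE 0.20), 2.35 for Esrrb (SE 0.42), 2.27 for Zfp42 (SE 0.27) and 1.69 for Klf2 (SE 0.27). Genes of chromosome 8, where Sox1 lies, had a median log2 difference of 0.18 between clone 2 and control iPS cells, and X-linked genes one of 0.13, against 0 for all genes. Sox1 itself differed by −0.20 (95% interval −1.40 to 1.01). Their part in the Pou3f1, Sox3 and Sox1 values was not tested. Of the lists, 1 of 20 formative and primed genes, 0 of 20 streak genes, 1 of 26 ectoderm genes and 1 of 18 paralogs were called for the mean of both clones, against the 2.11% of all genes. Foxd4, a paralog of Foxd3, was lower (−4.10, SE 0.47), and was called with any 1 of the 10 libraries left out. Tcf15 (1.27, SE 0.25) and En1 (1.11, SE 0.23) were higher, but Tcf15 was called in 3 and En1 in 1 of the 10 fits with a library left out, and neither with only these lines fitted. Tcf15 lost its call without either control or clone 1 library, the clone 2 library of passage 5 or either MEF library. The fit that kept En1 left out the clone 2 library of passage 25. With the passage block 3 streak genes, Evx1, Hand1 and Lhx1, were called lower, and Nes joined En1 as higher, all 4 named after their values were seen. Foxd3 itself was 129 to 306 in the clones and 156 to 280.4 in control iPS cells.

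The regulators did not move together with passage. Passage 25 was compared with passage 5 within the pre-iPS line and the 3 iPS lines. None of the 9 met both criteria (0 of 9 against 1.69% of all genes), and by adjusted p alone 2 did, where 10.9% of all genes did. Pou3f1 was lower at passage 25 in 4 of 4 lines, with a mean log2 change of −0.74 (SE 0.07, limma adjusted p = 0.00265). Per line the change was −0.83 in control iPS cells, −0.76 in clone 1, −0.67 in clone 2 and −0.69 in pre-iPS cells. Sox3 was higher in 4 of 4 lines, by 0.99 on average (SE 0.14, limma adjusted p = 0.00931). Its change was 0.96 in control iPS cells, 1.44 in clone 1, 0.73 in clone 2 and 0.84 in pre-iPS cells, and its mean lay just below the fold threshold. A direction shared by all 4 lines was seen in 15.1% of all genes for higher and in 20.9% for lower. Without clone 1, the Sox3 mean was 0.84 and its limma adjusted p was at least 0.0582.

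**Figure D4:**
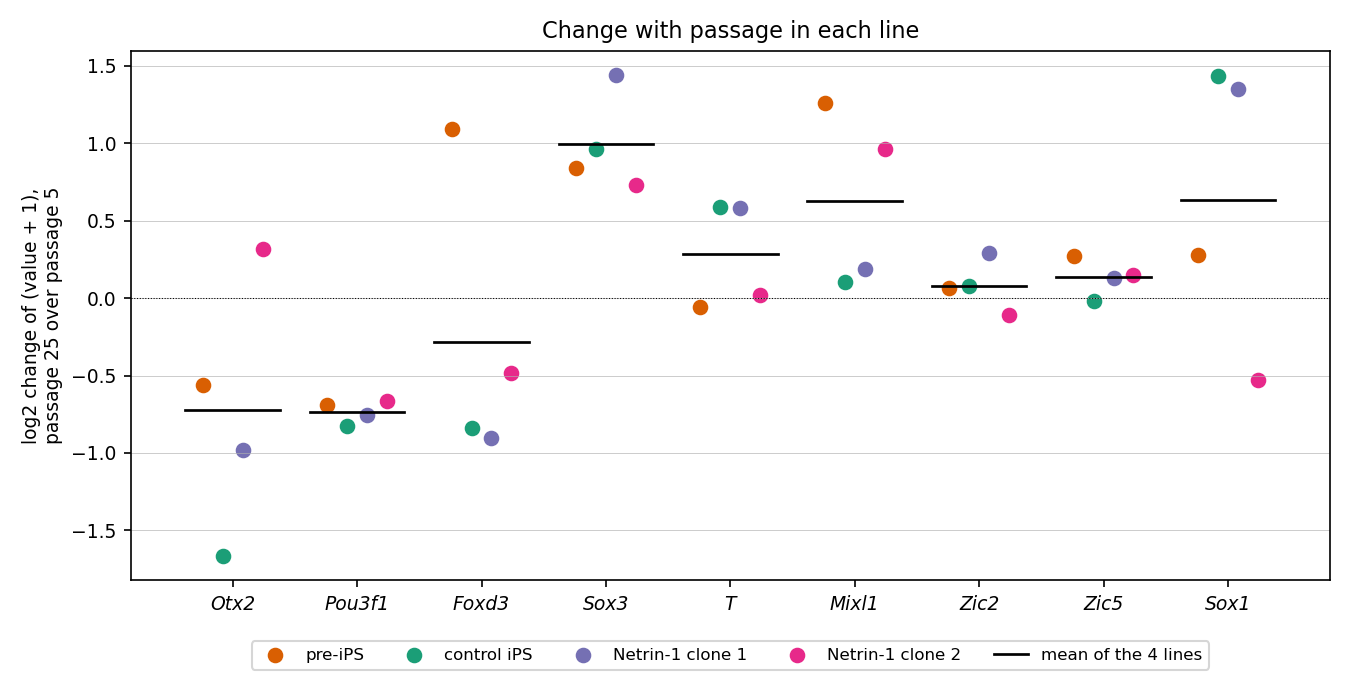
Log2 change of (value + 1) from passage 5 to passage 25 for each regulator. Points are the pre-iPS line and the 3 iPS lines, and bars the mean of the 4. Pou3f1 is below 0 and Sox3 above 0 in every line, while Otx2 and Sox1 have clone 2 on the other side of 0 from the other iPS lines.

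Otx2 and Sox1 had passage differences of 1 sign in control iPS cells and clone 1 and of the other sign in clone 2. Otx2 went from 1748 to 551 in control iPS cells (log2 change −1.67) and from 1189.8 to 602 in clone 1 (−0.98), and from 1210.0 to 1506 in clone 2 (0.32). Sox1 went from 635 to 1719 in control iPS cells (1.43) and from 544 to 1392 in clone 1 (1.35), and from 1094 to 759 in clone 2 (−0.53). A test of the difference between the clone 2 change and that of the other lines, chosen after the values were seen, did not pass for Otx2 (1.38, limma adjusted p = 0.473) or Sox1 (−1.55, limma adjusted p = 0.464), and 0 of 17075 genes passed it. Foxd3 had lower values at passage 25 in the 3 iPS lines (−0.84, −0.91 and −0.49) and was near single reads in pre-iPS cells. Zic2 moved by −0.11 to 0.29 and Zic5 by −0.02 to 0.27 in the 4 lines. Mixl1 had higher values at passage 25 in 4 of 4 lines (mean 0.63, limma adjusted p = 0.239), but on few reads. Control iPS cells had 12 Mixl1 reads at either passage, while clone 1 had 8 each time. There the higher value came only from the scaling to a common library size. Reads rose from 6 to 14 for clone 2 and from 1 to 4 for pre-iPS cells. A rise of Mixl1 shared by all lines was thus not resolved.

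Of the list genes, Lef1 (−1.25, SE 0.20), Hand1 (−1.40, SE 0.23) and Eomes, a T-box factor of the streak (−1.02, SE 0.15), were lower at passage 25, and Sp8 was higher (1.36, SE 0.30). These calls depended on the lines fitted, since with line as a block, leaving out 1 library removes the passage difference of its line. Lef1 lost its call without either clone 1 library, Hand1 without any clone 1 or pre-iPS library, Eomes without any control or clone 2 library or the clone 1 library of passage 5, and Sp8 without any control, clone 1 or pre-iPS library. None of the 4 was called without the line block. Of 6 trophoblast markers 3 were lower at passage 25, namely Hand1 and Eomes again and Krt7 (−1.91, SE 0.07), and the median of the 6 was −0.76 against −0.01 over all genes. Their part in these changes was not tested. T, another T-box gene, did not pass the test (0.28, 95% interval −0.32 to 0.89).

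Per kilobase of merged exons, Zic2 was the most abundant of the 9 in iPS cells. Its level was 1944 ± 187 (SD, n = 6 libraries), followed by Pou3f1 (480.5 ± 223), Otx2 (269 ± 114), Sox3 (241 ± 126), Zic5 (228 ± 12.7), Sox1 (212 ± 95.9), Foxd3 (95.7 ± 29.7), T (9.20 ± 2.64) and Mixl1 (4.21 ± 1.27). The 6 Zic2 libraries were above every library of the other genes, and T was above Mixl1 in every iPS library. Libraries of Pou3f1, Otx2, Sox3, Zic5 and Sox1 overlapped, the highest Foxd3 library (132) lay above the lowest of Otx2, Sox3 and Sox1, and the order of these genes was not resolved. Using the longest transcript in place of merged exons kept this order. Per kilobase in pre-iPS cells, Zic2 (1844 ± 61.4, n = 2) was first, followed by Sox1 (335 ± 45.3) and Zic5 (213 ± 28.3), while Pou3f1 (24.2 ± 8.13), Sox3 (20.9 ± 8.59) and Otx2 (1.18 ± 0.383) were far below. In MEF, Zic2 (130.2 ± 0.899) and Zic5 (10.7 ± 2.50) were first, and the other 7 were at or below 3.48.

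The genes with the most similar profile over the 8 pre-iPS and iPS libraries were named by Pearson's r of log2(value + 1), among 13844 genes with a mean of at least 50. The 8 points share 4 lines, and for 6 of the regulators the pre-iPS libraries lie apart from the others, so r is given as a description. Nearest to Otx2 were Foxh1, a Nodal effector (r = 0.995), and Dppa3, a gene of the germ line and naive cells (r = 0.995). Dppa3 was 436 to 1646 in iPS cells and 4.80 to 8.16 in pre-iPS cells. Nearest to Pou3f1 were Vgf (r = 0.994) and Sox17 (r = 0.993), to Foxd3 Map1b (r = 0.995) and Wbp5 (r = 0.992), and to Sox3 Pcbp4 (r = 0.992) and Fgf15 (r = 0.991). Nearest to T were Dpysl4 (r = 0.991) and Ubtd2 (r = 0.990), and to Mixl1 Pcdhga1 (r = 0.986) and Pi4k2b (r = 0.985). For the regulators whose pre-iPS libraries overlapped the iPS range, the nearest were Gtf2i (r = 0.959) and Wdr43 (r = 0.949) for Zic2, Tdp1 (r = 0.983) and Nsl1 (r = 0.982) for Zic5, and Calm3 (r = 0.958) and Gpr126 (r = 0.957) for Sox1.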

How the data were processed

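The data are RNA-seq libraries of 5 mouse lines, 2 each. Per the labels, the authors made libraries with the TruSeq RNA v2 kit, which does not mark strand, and the submitters' processing notes name CASAVA 1.8.2, FastQC, TopHat2 2.0.8b, HTSeq 0.5.3p9, edgeR and build mm10. The annotation used for counting is not given in the sources used here. The deposited values are a normalized signal, edgeR pseudo-counts that the authors brought from gene counts to a common library size. Whole reads were recovered from them for 100% of values in every library (within 0.1 read), with 38110410 to 52946856 reads per library, and served for read ratios and for the count tests. Intervals on reads cover counting error only.

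The filter asked for 2 or more libraries at 10 or above and left 17075 genes. Differences were tested on log2(value + 1) in R 4.3.3 by limma 3.58.1 (lmFit, then eBayes with the trend option), fitting each of the 5 lines a mean from the 10 libraries, and Benjamini-Hochberg adjustment covered every gene left. A fold change on this scale understates that of low genes. Where iPS cells are compared as 1 group, the 3 iPS lines weigh equally. The passage test left out MEF and blocked on line (8 libraries). Libraries of the same passage deviated together from their line means (r = 0.235 to 0.504 over 6 pairs of lines), so passage was taken to pair them. On simulated counts for pre-iPS against iPS, 100% of changes of 3 log2 and 96.7% of changes of 1.5 log2 were recovered over 17075 genes. The simulation gave all genes the same dispersion and no passage effect, and planted changes only in genes above a minimum read level. It therefore does not give the recovery for the regulators described here.

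The members and gene lists were chosen with earlier results of these data known. All 9 members are named, from each list the 3 called genes with the largest and the 3 with the smallest log2 fold change where the text covers the list, and for each member the 2 genes of most similar profile. Other list genes and paralogs were picked after their values were seen. Positions and lengths came from GENCODE M21 (GRCm38), which located 98.9% of the symbols, and promoter windows from RefSeq (GRCm38.p6), which matched 5 of the 9 members. Alternatives were other pseudocounts (0.5, 5), filters, normalizations, the passage block, each library left out, edgeR 4.0.16 and DESeq2 1.42.0.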

Additional observations from a re-analysis of the deposited data

How the results depend on the processing

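Of the 187 values of the 9 regulators for pre-iPS against iPS cells, 182 kept their direction and call, 4 lost the call (all Mixl1) and 1 turned (Zic5, −0.24 to 0.035 with a library left out). For MEF against iPS cells 173 of 178 did, and Mixl1 turned after quantile normalization (0.65) and lost its call in 4. T and Mixl1, with 131 and 60 reads over the 6 iPS libraries, were not tested at a mean of at least 50. Housekeeping scaling moved the median of all genes in MEF against iPS cells from −0.09 to 0.30 log2.

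Counts of regulators called moved as follows. With passage as replicate block, which paired the libraries, 2 were called for clone 2 against control (Pou3f1, Sox3) and 1 against clone 1 (Pou3f1), and DESeq2 called 1 for clone 2 against control. The block changed no other call among the pre-iPS and iPS lines. For passage 25 against 5, quantile normalization, edgeR, DESeq2 and the 6 iPS libraries alone (an alternative chosen after seeing the data) each called 1 (Sox3, at 1.04 to 1.08), adjusted p alone called 2, and leaving out a library gave 0 to 2. Without the clone 2 library of passage 5, Otx2 was called too (−1.07, limma adjusted p = 0.0497). Over all genes, the block called 564, 490, 711 and 327 in place of 360, 240, 413 and 165 for both clones, clone 1 and clone 2 against control and clone 2 against clone 1, DESeq2 called 515, 670 and 435 for the last 3, and quantile normalization 372 for clone 1 against control. Without the line block 6 genes were called for passage in place of 289. edgeR on the recovered reads called 2712 genes for pre-iPS against iPS cells in place of 2781.

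Other values turned that were not called in the fit reported. They were Otx2 in both clones against control (−0.0622 with edgeR and −0.0601 with DESeq2), Sox1 in clone 2 against clone 1 (−0.0602 with edgeR and −0.0723 with DESeq2), T in pre-iPS cells against MEF (−0.18) and Zic5 in clone 1 against control (−0.00801), the last 2 with quantile normalization. With a library left out, clone 1 against control ranged from −0.69 to 0.21 for Foxd3, −1.05 to 0.62 for Otx2, −0.54 to 0.29 for Pou3f1, −0.98 to 0.45 for Sox1, −1.11 to 0.33 for Sox3, −0.21 to 0.38 for T and −0.044 to 0.089 for Zic5. Clone 2 against control ranged from −0.11 to 0.72 for Foxd3, −0.91 to 0.053 for Mixl1, −0.37 to 1.29 for Otx2 and −0.91 to 0.52 for Sox1. Both clones against control ranged from −0.39 to 0.45 for Foxd3, −0.71 to 0.96 for Otx2, −0.95 to 0.49 for Sox1 and −0.50 to 0.093 for T. Clone 2 against clone 1 ranged from −0.31 to 0.65 for Mixl1, −0.61 to 0.74 for Sox1, −1.36 to 0.087 for Sox3 and −0.27 to 0.020 for Zic2, and pre-iPS cells against MEF from −0.81 to 0.28 for Foxd3 and −1.06 to 0.20 for Mixl1. With a library left out, its line keeps only the other passage, so these ranges include the passage difference of that line. The cause of the turns with edgeR, DESeq2 and quantile normalization was not tested.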
